A study of Homo sapiens with 6 samples.

Results

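The keratin genes described here are 10 members of the family that mark the luminal, basal and hair programmes of epithelia. They were taken by gene symbol, through the Ensembl identifier of each row, and are 10 of the 57445 genes in the deposited table. KRT7, KRT8, KRT18 and KRT19 are the luminal and simple epithelial keratins, KRT5, KRT14 and KRT17 the basal ones, KRT81 and KRT86 hair keratins, and KRT80 stands apart from all 3 classes. The cells were MDA-MB-231, an established human triple-negative breast cancer line, grown in RPMI-1640 with fetal calf serum. A pair of lentiviral pGIPZ hairpin lines of it was compared, shCTL with a non-sense control shRNA and shRor1 with an shRNA against ROR1, with 3 libraries each. Both carried the virus, at a multiplicity of infection of 5.0, and both were kept under puromycin at 2 µg/ml, so the controls share the vector and the drug. The knockdown rests on 1 hairpin sequence, and the sources used here do not give whether the lines were pools or clones, or whether the 3 libraries of a group came from separate cultures. P-values therefore measure the spread between these libraries, which may be technical. The source label names an empty vector for the controls, and DMSO is part of the header over the control columns but not of that over the shRor1 columns. A difference in solvent and the hairpin cannot be told apart by these columns. The 3 columns of a group share 1 header, so libraries are numbered by their place in the table, and a number does not tie a shCTL library to a shRor1 library.

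Keratins are the intermediate filament proteins of epithelial cells. A filament is built from heterodimers in which a type I chain binds a type II chain, so cells need chains of both types. KRT8 and KRT18 are the first keratins of the embryo and the standard partners of simple epithelia, while KRT5 and KRT14 are the partners of basal cells in stratified and mammary epithelium. In breast pathology, KRT7, KRT8, KRT18 and KRT19 are read as luminal markers and KRT5, KRT14 and KRT17 as basal markers. MDA-MB-231 is known for a mesenchymal appearance with abundant vimentin, the intermediate filament protein of mesenchymal cells.

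In these cells the luminal keratins of the set were abundant, its basal keratins were at or near 0, and its hair keratins were low. No keratin passed the test between shRor1 and shCTL. KRT81, a type II hair keratin, had the largest log2 fold change in size among the keratins tested, with a mean of 5.58 ± 0.76 TPM in shCTL and 3.96 ± 0.80 TPM in shRor1 (SD, n = 3 each). TPM is the share of a gene's transcripts in a library after correction for gene length, scaled so that a library sums to about 1000000, and may therefore be compared between genes. The table holds no read counts. The study gives mapped-read totals per library, but these are not tied to columns of the table and were not used, so the reads behind a value are not given here. In RNA of whole cultures, fewer cells that express a gene and less RNA per cell cannot be told apart.

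The hairpin target was checked first. In shCTL, ROR1 stood at 15.4, 13.5 and 20.6 TPM, and in shRor1 at 9.34, 11.9 and 14.8 TPM. The groups overlapped, and the log2 fold change of -0.43 (standard error 0.20) had an adjusted p of 0.984 (limma). For the protein, the paper presents a western blot of Ror1 in both lines and describes shRor1 as a knockdown. It also reports less RhoA and less phosphorylated JNK in shRor1. Whether the blots and the libraries came from the same cultures is not given. Every difference between the groups below belongs to libraries in which the mRNA of the target did not pass the test. Each fold change compares shRor1 with shCTL on the scale of log2(TPM + 1), which understates the change of low genes. The test covered 16554 genes that reached 1 TPM in 3 or more libraries, and adjusted p-values are those of limma with the Benjamini-Hochberg method over all 16554. The smallest adjusted p of all genes tested was 0.369.

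How far a keratin can be told from its relatives by reads of 50 bases was read from the sequences. It bears most on KRT81 and KRT86, the hair keratins of the set. KRT81 (ENSG00000205426.6) lies at chr12:52679697-52685318 of GRCh37 on the minus strand, and KRT86 (ENSG00000170442.7) at chr12:52643084-52702947 on the plus strand, so the span of KRT86 encloses KRT81 on the opposite strand. Over 1457 aligned coding bases they were 93.6% identical.

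The same question was asked for each keratin over its whole canonical transcript, by looking up every window of 50 bases in the transcripts of all other genes. For KRT81, 838 of 1880 windows (44.6%) occurred elsewhere, and 721 of them in KRT86. For KRT86 it was 878 of 2198 (39.9%). For KRT8 it was 680 of 1735 (39.2%), spread over 36 genes that are mostly its processed pseudogenes, and for KRT18 501 of 1364 (36.7%) over 45 genes. KRT14 shared 24.2% of its windows, 180 of 1587 with KRT16, and KRT17 shared 17.4%. KRT5 shared 4.52%, KRT19 1.79%, KRT7 1.08% and KRT80 0.42%. The values of KRT7, KRT19 and KRT80 thus rest almost wholly on windows found in no other annotated transcript in the same orientation. Overlaps on the opposite strand, as of KRT7 with its antisense transcript, were not part of this search. Those of KRT8, KRT18, KRT81 and KRT86 rest in part on RSEM's division of reads between copies.

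**Figure D1:**
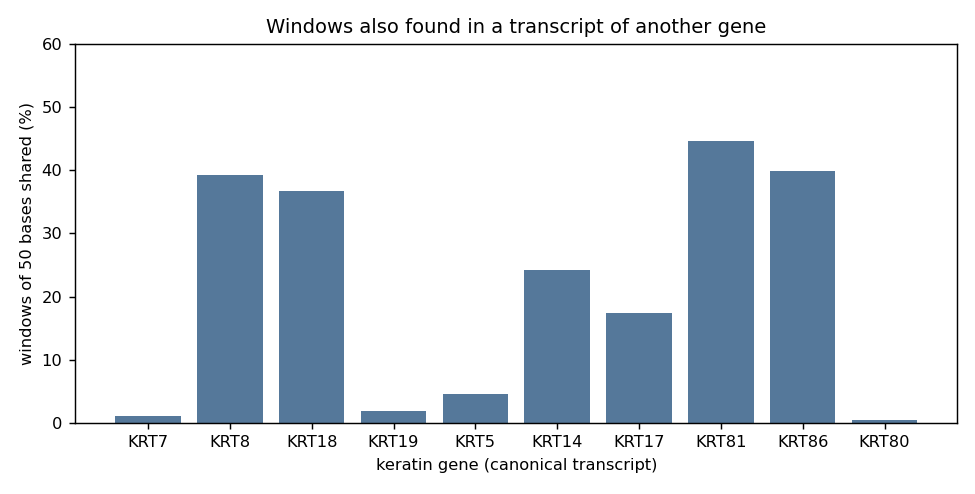
Share of the 50-base windows of the canonical transcript of each keratin (bars, in percent) that also occur in an annotated transcript of another gene, on the same strand of the transcript. KRT81 reached 44.6%, KRT86 39.9%, KRT8 39.2% and KRT18 36.7%, while KRT7, KRT19 and KRT80 stayed below 2%.

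KRT8, the type II chain of simple epithelia (ENSG00000170421.7, chr12:53290971-53343738, minus strand), was the most abundant of the 10 on average. It had 504.6, 465.0 and 594.6 TPM in shCTL and 471.5, 403.6 and 594.2 TPM in shRor1. The third library was the highest of each group. The groups overlapped, although the second shRor1 library lay below every shCTL library. The 95% interval of its log2 fold change, -0.10 ± 0.15 (standard error), ran from -0.45 to 0.25 (adjusted p = 0.984, limma).

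KRT18, the type I partner of KRT8 (ENSG00000111057.6, chr12:53342655-53346690, plus strand), stands head to head with it on the chromosome. It had 488.4, 502.3 and 502.3 TPM in shCTL and 502.9, 456.8 and 469.8 TPM in shRor1. It was the steadiest of the keratins tested, with a coefficient of variation of 1.61% in shCTL and 4.99% in shRor1. For comparison, the median over the 5211 genes at 30 TPM or more was 6.37% and 8.96%. Its log2 fold change of -0.06 (standard error 0.07) had an adjusted p of 0.984 (limma), and the 95% interval from -0.22 to 0.09 is the narrowest of the 6 keratins tested.

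KRT7, a type II keratin of glandular ducts (ENSG00000135480.10, chr12:52626304-52645970, plus strand), had 212.6, 258.9 and 304.3 TPM in shCTL and 193.1, 246.8 and 286.6 TPM in shRor1. The spread within a group exceeded the difference between the groups, with a log2 fold change of -0.10 (standard error 0.17, adjusted p = 0.986). KRT19, a type I keratin that is unusual for its very short tail (ENSG00000171345.9, chr17:39679869-39684560, minus strand), had 95.8, 84.8 and 127.7 TPM in shCTL and 92.9, 91.9 and 141.5 TPM in shRor1. It was the single keratin of the 6 tested with a higher mean in shRor1, by a log2 fold change of 0.07 (standard error 0.20, adjusted p = 0.987). Both varied more than that median over genes at 30 TPM or more, with a coefficient of variation of 17.7% and 19.4% for KRT7 and of 21.7% and 26.1% for KRT19. The directions of KRT7, KRT8 and KRT19 depended on single libraries. The log2 fold change of KRT7 was 0.03 with the third shCTL library left out and 0.06 with the first shRor1 library left out. That of KRT8 was 0.03 without the second shRor1 library. That of KRT19 was -0.05 without the second shCTL library and -0.13 without the third shRor1 library.

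KRT80 is a type II keratin found in many epithelia and linked to cell junctions in differentiating cells (ENSG00000167767.9, chr12:52562780-52585798, minus strand). It had 37.9, 46.5 and 47.5 TPM in shCTL and 35.9, 40.9 and 43.7 TPM in shRor1. The groups overlapped, because the first shCTL library lay below the 2 higher shRor1 libraries. In limma, the log2 fold change of -0.12 (standard error 0.12) had a 95% interval from -0.39 to 0.14 and an adjusted p of 0.984. Without the first shCTL library the groups no longer overlapped and the log2 fold change was -0.23 (adjusted p = 0.9999 from limma). In that fit the groups did not overlap for 2150 of all 16554 genes tested.

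**Figure D2:**
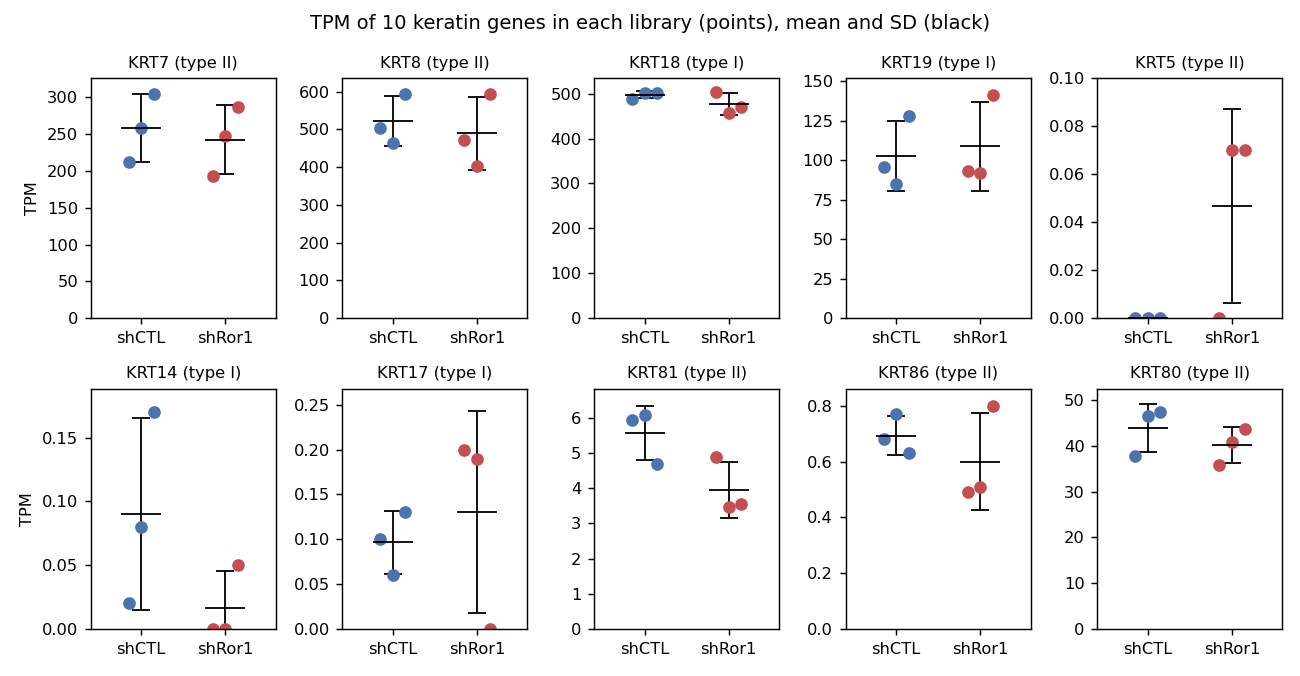
TPM of the 10 keratins (vertical axis of each panel, linear and starting at 0, with its own scale) in the 3 shCTL libraries (blue points) and the 3 shRor1 libraries (red points), in the order of the table from left to right. Black bars give the mean and the SD, truncated at 0. The groups overlap in every panel, and KRT5, KRT14 and KRT17 stay at or below 0.2 TPM.

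KRT81 had 5.95, 6.08 and 4.70 TPM in shCTL and 4.88, 3.46 and 3.54 TPM in shRor1. The 2 highest values were shCTL and the 2 lowest shRor1, while the third shCTL library lay just below the first shRor1 library, so the groups overlapped. The mean in shRor1 was 71.0% of that in shCTL. Its log2 fold change of -0.41 had a standard error of 0.16, with a 95% interval from -0.78 to -0.04. Its unadjusted p was 0.0326 and its adjusted p 0.984 in limma, so it did not pass the test. The two-sided exact permutation test gave p = 0.2, where 3 libraries against 3 cannot go below 0.1.

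KRT81 was thus 1 of the 6 keratins tested with an unadjusted p below 0.05, beside 2.85% of all genes tested and 0.544% that were lower in shRor1 at that p. That 0.544% is 90 genes, against 171 with quantile normalization and 163 with median ratio scaling. KRT81 kept an unadjusted p below 0.05 in both of those fits. At an adjusted p below 0.05 the count was 0 of the 6 keratins, beside 0% of all genes. The study used another test, edgeR, and reported AGR2 and an uncharacterized gene as significant at a false-discovery rate below 0.05. In limma here AGR2 had an adjusted p of 0.984. The groups did not overlap for 0 of the 6 keratins, beside 7.78% of all genes. With the third shCTL library left out the groups of KRT81 no longer overlapped and its unadjusted p in limma was 0.0194. With the first shRor1 library left out these held as well, at 0.00941. The overlap had come from the values of these libraries. Groups without overlap were found for 3655 of all 16554 genes in the first of these fits and for 4847 in the second. An unadjusted p below 0.05 was found for 667 and 1720 genes. With any of the other 4 left out, namely the first or the second of shCTL or the second or the third of shRor1, the unadjusted p lay between 0.0865 and 0.103 and the call at that p was lost. Over these 6 fits the adjusted p ran from 0.44 to 1.

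KRT86, the other hair keratin and also of type II, had 0.68, 0.77 and 0.63 TPM in shCTL and 0.49, 0.51 and 0.80 TPM in shRor1. The third shRor1 library was the highest of the 6 and the other 2 shRor1 libraries were the lowest. It stayed below 1 TPM in every library and was not in the reported test. After KRT86, the genes that shared most windows with KRT81 were the pseudogene KRT87P (170 windows), which ran from 0.31 to 0.58 TPM over the libraries, and the hair keratins KRT83 (117) and KRT85 (114), which reached at most 0.06 and 0.14 TPM. KRT81 took from 78.5% to 87.9% of the summed TPM of the 4 hair keratins. With these 4 summed into 1 value, so that the division of reads among the 4 could not matter and with KRT87P left aside, the levels ran from 5.41 to 7.02 TPM in shCTL and from 4.05 to 5.56 TPM in shRor1. The log2 fold change of the sum was -0.38 (unadjusted p = 0.0369, adjusted p = 0.984 from limma).

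**Figure D3:**
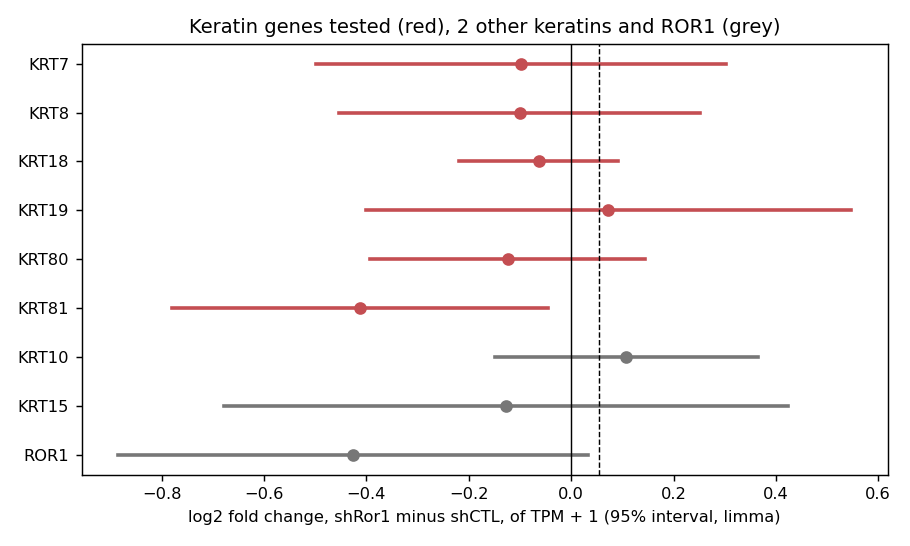
Log2 fold change of TPM + 1, shRor1 minus shCTL (horizontal axis), with its 95% interval from limma for the 6 keratins tested (red) and for KRT10, KRT15 and ROR1 (grey). The dashed line is the median of all genes tested, 0.05. The interval of KRT81, from -0.78 to -0.04, does not reach 0, and the intervals of the other 5 red genes include it.

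The basal keratins of the set were barely detected. KRT5, the type II chain of basal cells (ENSG00000186081.7, chr12:52908359-52914314, minus strand), was listed at 0 in all shCTL libraries and in the first shRor1 library, and at 0.07 TPM in the other 2. KRT14, its type I partner (ENSG00000186847.5, chr17:39738531-39743147, minus strand), had 0.02, 0.08 and 0.17 TPM in shCTL and was listed at 0, 0 and 0.05 TPM in shRor1. KRT17, a type I keratin of basal and activated epithelium (ENSG00000128422.11, chr17:39775694-39781094, minus strand), had 0.10, 0.06 and 0.13 TPM in shCTL and 0.20, 0.19 and 0 TPM in shRor1. No direction was shared by the 3 genes, none reached 1 TPM in any library, and none was in the reported test. Their summed level ran from 0.12 to 0.30 TPM in shCTL and from 0.12 to 0.26 TPM in shRor1, against 1199 to 1529 TPM for the 4 luminal keratins. Without reads per gene, a difference between the groups could not be judged at values this low.

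Ordered by their mean over the 6 libraries, the levels were KRT8 (505.6 TPM), KRT18 (487.1), KRT7 (250.4), KRT19 (105.8), KRT80 (42.0), KRT81 (4.77), KRT86 (0.65), KRT17 (0.11), KRT14 (0.05) and KRT5 (0.02). KRT8 and KRT18 did not differ beyond their spread, with KRT8 the higher of the pair in 3 of the 6 libraries. From KRT18 down to KRT17 the ranges of neighbours did not overlap, and the order held in 6 of 6 libraries. The ranges of KRT17, KRT14 and KRT5 overlapped. The drop from KRT80 to KRT81 was the widest between neighbours, with means 8.82-fold apart. In rank among the 57445 genes of the table, KRT8 stood between 219 and 328 and KRT18 between 252 and 282 over the libraries, while KRT81 stood between 10409 and 12491.

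Summed over the 10 genes, keratin mRNA made up 1346, 1364 and 1582 TPM in shCTL and 1302, 1244 and 1540 TPM in shRor1. KRT8 and KRT18 together took from 69.1% to 74.8% of it. The third library of each group had the largest sum, and the groups overlapped. Since type I and type II chains assemble as equals, their balance was read as the type II share of the summed TPM. It was 56.6%, 57.0% and 60.2% in shCTL and 54.2%, 55.9% and 60.3% in shRor1. The mean difference of -1.10 percentage points was smaller than the pooled SD of 2.62 percentage points between libraries, and it was 0.03 when the third shCTL library was left out and 0.20 when the first shRor1 library was. The ratio of KRT8 to KRT18 ran from 0.93 to 1.18 in shCTL and from 0.88 to 1.26 in shRor1. KRT18 varied little between libraries beside KRT8 and KRT7.

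**Figure D4:**
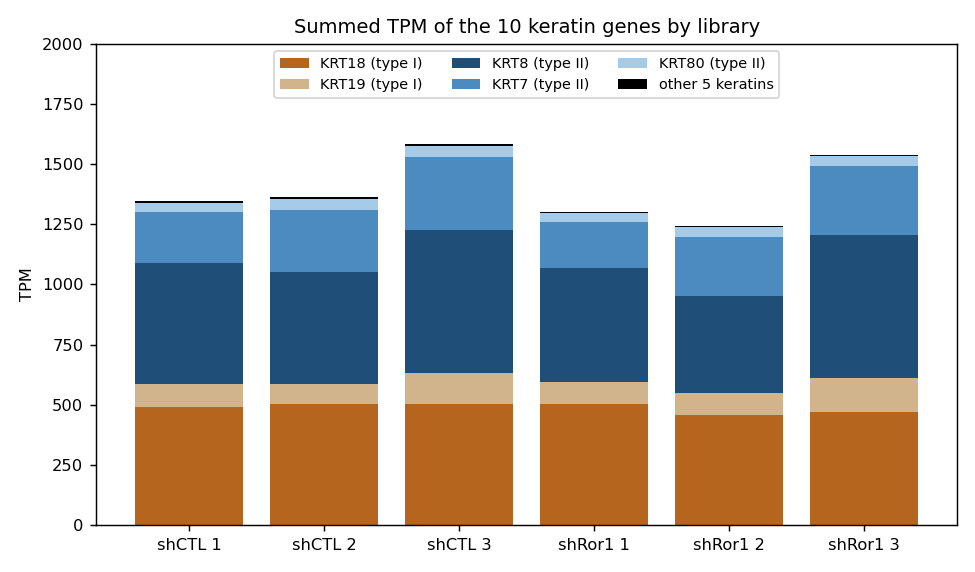
Summed TPM of the 10 keratins (vertical axis, from 0) in each library, with type I chains in brown, type II chains in blue and the 5 least abundant keratins in black. The third library of each group has the tallest bar, at 1582 TPM in shCTL and 1540 TPM in shRor1, and KRT18 has nearly the same height in all 6.

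Copies and antisense neighbours of the luminal keratins were examined beside them. The table lists 51 genes named as KRT8 pseudogenes, of which 4 were tested, and 67 named as KRT18 pseudogenes, of which 0 were tested. KRT8 pseudogenes summed to 17.6 to 21.5 TPM over the libraries, from 3.48% to 4.31% of KRT8 plus copies, with KRT8P36 (7.99 TPM on average), KRT8P12 (5.01) and KRT8P33 (1.57) the highest. KRT18 pseudogenes summed to 3.68 to 5.06 TPM. With the copies added to their parent gene, the log2 fold changes were -0.10 for KRT8 and -0.06 for KRT18, the same to 2 decimals. KRT7-AS, an antisense transcript within KRT7, had 2.39, 3.34 and 4.11 TPM in shCTL and 2.05, 3.12 and 3.75 TPM in shRor1, the same order of libraries as KRT7. It shares 282 exonic bases with KRT7 on the opposite strand. KRT8 and KRT18 share 525 exonic bases on opposite strands in GENCODE 44. The library kit keeps the strand, but whether RSEM was told to use it is not given in the sources used here, so reads of the 2 strands cannot be told apart with certainty at these bases. AC107016.2, which shares 88 exonic bases with KRT18 on its own strand, was listed at 0 in 4 libraries and at 0.59 and 3.09 TPM in the first and second shRor1 libraries.

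The rest of the keratin family was low or listed at 0. Of 45 other keratin genes, 21 were listed at 0 in every library, 22 were above 0 in some library but were not tested, and 2 were tested, of which 0 passed in either direction. The 2 were type I keratins. KRT10, the type I chain of suprabasal epidermis, had 17.4 to 22.7 TPM in shCTL and 20.8 to 22.7 TPM in shRor1, and KRT15, a type I keratin of basal and stem-like epithelial cells, had 4.03 to 6.80 and 3.08 to 5.69 TPM. None of the 20 other type II keratins reached 0.15 TPM in any library. KRT6A, the activation keratin of injured epidermis, was listed at 0 in all 6. The 45 genes summed to between 22.8 and 31.3 TPM, less than KRT80 alone.

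Genes that work with keratins were described from lists of related genes, beside a median log2 fold change of 0.05 over all genes tested. For the 6 keratins tested the median was -0.10, with 5 lower and 1 higher. Of 15 other intermediate filament genes, 10 were tested, 8 were higher and 2 lower, and 0 passed in either direction, with a median of 0.11. Vimentin (VIM) stood at 2399 to 2688 TPM in shCTL and at 2527 to 2920 TPM in shRor1, which is on average 1.88 times the sum of the 10 keratins. LMNA, the nuclear lamin A/C gene, had 373 ± 28 TPM in shCTL and 398 ± 34 TPM in shRor1, and LMNB2, a B-type lamin, 210 ± 6.3 and 199 ± 17 TPM (SD, n = 3 each). Of 21 genes for the desmosomes and hemidesmosomes to which keratins are anchored, 14 were tested, 9 were higher and 5 lower, and 0 passed, with a median of 0.07. Plectin (PLEC), the cross-linker that holds keratin at hemidesmosomes, had 238 ± 23 and 231 ± 35 TPM. Dystonin (DST), a related linker, had 121 ± 14 and 136 ± 20 TPM, and CD151, a tetraspanin of hemidesmosomes, had 206 ± 14 and 203 ± 15 TPM.

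Of 17 epithelial transcription factors, 8 were tested, 6 were higher and 2 lower, and 0 passed, with a median of 0.03. The most abundant were KLF4 (20.3 ± 1.9 and 20.8 ± 2.4 TPM), KLF5 (15.4 ± 3.1 and 15.3 ± 2.6 TPM) and TFAP2C (8.74 ± 0.59 and 9.93 ± 0.32 TPM). For TFAP2C, which encodes AP-2 gamma, the groups did not overlap, at a log2 fold change of 0.17 (standard error 0.10, adjusted p = 0.984 from limma). This held for 1 of the 8 factors tested, beside 7.78% of all genes tested. TP63, the regulator of basal keratin genes, was at 0.70 to 0.74 TPM in shCTL and at 0.47 to 0.57 TPM in shRor1. Its groups did not overlap, but it stayed below 1 TPM, was left out of the reported test and was named after its values were seen. Without the filter, groups did not overlap for 2638 of 39104 genes. The other factors left out of the test are not described here. Of 13 genes of the cornified envelope, the protein shell of terminally differentiated keratinocytes, 12 were found in the table, 7 of them at 0 in every library. The 3 tested were SFN, FLG and TGM1, with 77.5 ± 9.2, 7.40 ± 0.84 and 1.77 ± 0.38 TPM in shCTL and 72.2 ± 7.1, 7.47 ± 1.29 and 2.28 ± 0.22 TPM in shRor1, and 0 of them passed.

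The label of the line was set against marker lists. Of 19 luminal epithelial markers, 13 were tested, 10 were higher and 3 lower, and 0 passed, with a median log2 fold change of 0.14, and their summed level ran from 174 to 212 TPM in shCTL and from 191 to 258 TPM in shRor1. The estrogen receptor gene ESR1 stayed at or below 0.21 TPM and the progesterone receptor gene PGR at or below 0.01 TPM, both of which encode receptors that triple-negative cells lack by definition. EPCAM, an epithelial adhesion molecule, ran from 12.6 to 15.8 TPM over the 6 libraries. MLPH, XBP1 and CLDN4 were the most abundant of this list, led by XBP1 with 62.9 ± 4.2 TPM in shCTL and 68.7 ± 3.2 TPM in shRor1 and MLPH with 56.5 ± 10.5 and 72.6 ± 17.0 TPM. The gene for E-cadherin, CDH1, had 1.01, 0.80 and 1.22 TPM in shCTL and 1.36, 1.41 and 1.47 TPM in shRor1, so its groups did not overlap (log2 fold change 0.27, standard error 0.14, adjusted p = 0.984). This held for 1 of the 13 luminal markers tested, beside 7.78% of all genes tested. Of 11 mesenchymal markers, 9 were tested, 6 were higher and 3 lower, and 0 passed, with a median of 0.07 and sums of 3838 to 4115 TPM in shCTL and 3907 to 4282 TPM in shRor1. Among these 9, groups without overlap were found for 1. AXL and CD44 followed VIM in level, while CDH2 stayed at or below 0.23 TPM and TWIST1 was listed at 0 in every library. The part of any of these lists in the difference of KRT81 was not tested.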

How the data were processed

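RNA of MDA-MB-231 cells was profiled in 3 shCTL and 3 shRor1 libraries from a strand-specific kit, as single reads of 50 bases. The authors demultiplexed the reads with CASAVA 1.8.2, checked them with FastQC 0.10.0, mapped them to GRCh37 with STAR and Ensembl 73, and estimated gene abundances with RSEM 1.2.5. The deposited values are TPM as computed by the authors, with each library summing to about 1000000, although the table is called one of expected counts. A larger share of one gene lowers all others, and the reads behind a value cannot be read from TPM. Every column of the table was used.

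A gene was tested if it reached 1 TPM in 3 or more libraries. On log2(TPM + 1), limma 3.58.1 in R 4.3.3 was fitted with the condition as its only term and a trend of variance with level, and p-values were adjusted by the Benjamini-Hochberg method with a threshold of 0.05. The script was tested on simulated data. Groups of 3 were also compared with a two-sided exact permutation test. Symbols came from the gene name table (55022 of 57445 identifiers matched), and coordinates, exons and transcripts from GENCODE 44 on GRCh37, a later annotation than that of the authors. Windows of 50 bases were matched exactly and in the orientation of the transcript. The sequences of the hair keratins are not reported here.

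Named genes are all 10 keratins, ROR1, the 3 most abundant tested genes of each list with any at an unadjusted p below 0.05, and up to 3 copies or overlapping genes of a keratin. Other keratins, TP63, CDH1 and the markers given at or near 0 were named after their values were seen. The members and lists were chosen with earlier results of these data known. Alternatives were other filters, a pseudocount of 0.1, quantile and median ratio scaling, no trend, protein-coding genes, summed copies and each library left out.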

Additional observations from a re-analysis of the deposited data

How the results depend on the processing

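No paired analysis was possible because libraries of a group cannot be told apart by their header, which carries no replicate number. The log2 fold changes and the counts of keratins were recomputed under up to 9 other settings and with each of the 6 libraries left out. The count over all genes had fewer settings, the type II share 1 other, and levels, their order and the gene lists were not recomputed. Over all genes, 0 had an adjusted p below 0.05, and from 0 to 1 with a library left out, the 1 being found without the third shRor1 library. The number of keratins with an adjusted p below 0.05 was 0 in all 15 fits. The fit without a filter covered all 10 keratins, and KRT81 was the only 1 with an unadjusted p below 0.05 there. The number with an unadjusted p below 0.05 was 1, but 0 at a mean of at least 5 TPM, where KRT81 was not tested, and from 0 to 1 with a library left out. The number whose groups did not overlap was 0, and from 0 to 2 with a library left out. Over all 16554 genes tested that number was 1288, and from 2150 to 4847 with a library left out. The 2 keratins and the 4847 genes belong to the same fit, without the first shRor1 library. The log2 fold changes of KRT18, KRT80 and KRT81 kept their sign in every fit, and that of KRT81 ran from -0.49 to -0.38 under the other settings and from -0.54 to -0.34 with a library left out. With a library left out, KRT7 ran from -0.23 to 0.056, KRT8 from -0.25 to 0.029 and KRT19 from -0.13 to 0.24, and the 5 reversals among 89 values were all of this kind. The type II share differed by -2.85 to 0.20 percentage points with a library left out. All genes with an unadjusted p below 0.05 numbered 472, against 1363 without a filter, 227 at a mean of at least 5 TPM, 222 among protein-coding genes and from 278 to 1720 with a library left out. Of the 472, 19.1% were lower in shRor1, against 46.1% with quantile normalization and 41.5% with median ratio scaling. Fewer or more genes were tested in the filtered fits, and for the other changes the cause was not tested. Counting error was not computed for KRT5, KRT14, KRT17 and KRT86, since TPM holds no reads per gene.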

Other observations

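The order of the 3 columns within a group was compared between the groups. KRT7, KRT8, KRT19 and KRT80, 4 of the 6 keratins tested, ranked the 3 shCTL columns as they ranked the 3 shRor1 columns, taken from left to right. Over all 16554 genes tested, 5871 (35.5%) did so, where 3 columns can stand in 6 orders. These shares are a description, with no test. The columns carry no number that ties them, and no fit used this order.

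KRT8P36 is the most abundant of the pseudogenes named after a keratin of this set. It had 7.95, 7.36 and 9.17 TPM in shCTL and 7.45, 6.43 and 9.60 TPM in shRor1, so its libraries were ordered as those of KRT8 were in both groups. KRT8P12 had 5.06, 5.26 and 4.25 TPM in shCTL and 4.90, 5.80 and 4.81 TPM in shRor1, with the highest value of each group in its second library, where KRT8 had its lowest.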
